A study of Mus musculus with 6 samples.

Results

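CpG-poor tiles are 2 kb stretches of the mouse autosomes that hold between 1 and 10 CpG dinucleotides. They were found by cutting chromosomes 1 to 19 into consecutive tiles of 2 kb and counting, in each tile, the distinct CpG positions listed in any of 6 bisulfite sequencing libraries. Of 1197507 tiles with a CpG, 400698 (33.5%) were CpG-poor. They covered 801 Mb but held only 2826981 of the 20358034 CpGs (13.9%). The rule used the number of CpGs in a tile and did not use methylation. The libraries came from 3 kinds of mouse pluripotent stem cells given as wild-type, 2 biological replicates each. All were labelled as embryonic stem cells of strain 129S2/SvPasCrl and sequenced from genomic DNA. Naive embryonic stem cells (ESCs) were cultured in 2i/LIF, which combines inhibitors of MEK and GSK3 with leukaemia inhibitory factor. Advanced pluripotent stem cells (ASCs) were kept in ABCL medium (Activin A, BMP4, the GSK3 inhibitor CHIR99021 and LIF). Epiblast stem cells (EpiSCs) represent the primed state that resembles the post-implantation epiblast. The paper derives its ASC lines from embryos of reporter-transgenic males with a mixed strain background, and calls the cells sequenced here female. Cell state and culture medium cannot be told apart here.

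In mammalian DNA most CpGs are methylated by DNMT3A and DNMT3B and kept so through replication by DNMT1 with UHRF1. Methylated cytosine deaminates to thymine, so that most of the genome has lost CpGs over evolution, and CpG-rich islands at promoters stay unmethylated. Sparse CpGs outside islands make up the bulk of the methylated genome. In late-replicating, gene-poor domains of many cell types, such CpGs lose methylation over cell divisions, most of all isolated CpGs flanked by A or T. Naive ESCs in 2i/LIF are known for low methylation across the genome, and primed cells for high methylation.

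Sequence around 3 isolated CpGs shows the extreme of the class, since tiles with a single CpG were only 0.717% of CpG-poor tiles. Each is the only CpG of its tile, with 60 bases on either side, read from the plus strand of GRCm38 (RefSeq), 5′ to 3′, with the CpG in capitals. The first lies in the 1 Mb window with the lowest ASC level among those with at least 500 reads in every library, and the others are the best-covered single CpGs outside repeats with A or T on both sides of the CpG and with C or G on both sides.
chr12:115478266-115478387: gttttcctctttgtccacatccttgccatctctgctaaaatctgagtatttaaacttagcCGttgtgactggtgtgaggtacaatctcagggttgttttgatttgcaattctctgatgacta
chr3:94222205-94222326: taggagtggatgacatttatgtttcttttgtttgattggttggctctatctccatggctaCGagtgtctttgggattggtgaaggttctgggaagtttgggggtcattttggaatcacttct
chr2:73235064-73235185: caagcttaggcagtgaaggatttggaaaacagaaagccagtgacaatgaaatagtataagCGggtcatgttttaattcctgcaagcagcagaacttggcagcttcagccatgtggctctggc
All 3 CpGs are intergenic, and the first is inside a masked repeat. In the first, 2 of 13 reads were methylated in ESCs, 5 of 9 in ASCs and 9 of 13 in EpiSCs, counting both replicates together. In the second, flanked by A on both sides, the counts were 0 of 15, 5 of 15 and 9 of 17. In the third, flanked by G on both sides, they were 2 of 16, 16 of 16 and 17 of 17. So few reads leave wide exact 95% Clopper-Pearson intervals, from 11.8% to 61.6% for the second CpG in ASCs and from 79.4% to 100% for the third, and these intervals cover counting error only.

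Depth per CpG was low, so levels were read from sums. Libraries held 63803799 to 74925271 CpG reads, of which 5449343 to 7464418 fell in CpG-poor tiles. The mean coverage of a CpG there was 1.93 to 2.64 reads, against 3.22 to 3.78 in denser tiles. Only 1712 CpG-poor tiles (0.427%) reached 40 reads in every library, against 55.1% of denser tiles, which is why reads were summed over whole classes of tiles or over 1 Mb windows. CpGs listed in neither library of a state numbered 78958 in ESCs, 80236 in ASCs and 124843 in EpiSCs. Across 1 Mb windows their share of all CpGs correlated with the level at r = 0.008 in ESCs, -0.021 in ASCs and -0.049 in EpiSCs. Their part in the results was not tested.

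CpG-poor tiles were AT-rich. Their median GC content was 38.05% and the median share of repeat-masked bases 29.9%, against 41.65% and 26.7% in tiles with 11 to 20 CpGs and 50.85% and 16.5% in tiles with over 40. The number of CpGs was 0.0969 of that expected from the base composition, against 0.171 in tiles with 11 to 20 CpGs. This order describes the rule, which sorts tiles by their number of CpGs, and is not a separate result. By position, 116341 tiles (29.0%) had their centre in a protein-coding gene body, 28232 (7.05%) in another annotated gene and 256125 (63.9%) between genes.

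CpG-poor DNA was largely unmethylated in ESCs, methylated at an intermediate to high level in ASCs and highly methylated in EpiSCs. The methylation level, the methylated share of all reads over CpGs of these tiles, was 15.3% and 15.4% in the ESC replicates, 63.4% and 63.6% in the ASC replicates, and 85.6% in both EpiSC replicates. The states did not overlap, and replicates lay within 0.143 points SD of their mean. ASCs were 48.2 points above ESCs and 22.1 points below EpiSCs. With 2 libraries a group, the exact permutation test over the 15 assignments of libraries to groups gave p = 0.0667, the smallest it can give, and no pair of groups can go below 0.333.

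The difference between states was wider in CpG-poor than in denser tiles, at 70.2 against 61.7 points from ESCs to EpiSCs. By class of denser tile, the gap from ESCs to EpiSCs was close to that of CpG-poor tiles up to 40 CpGs. It was 69.6 points in tiles with 11 to 20 CpGs and 68.6 in tiles with 21 to 40. It was smaller only in the densest tiles, at 50.5 points with 41 to 80 CpGs and 11.6 with over 80. Denser tiles had mean levels of 18.4% ± 0.28 in ESCs, 59.7% ± 0.27 in ASCs and 80.1% ± 0.57 in EpiSCs (SD, n = 2). CpG-poor tiles were thus 2.87 and 3.13 points lower than denser tiles in the 2 ESC libraries, 3.91 and 3.73 points higher in the ASC libraries, and 5.11 and 5.88 points higher in the EpiSC libraries. Both ESC libraries were on one side and all 4 others on the other (exact permutation test of the difference between groups, p = 0.0667, the smallest possible). With tiles of 1 to 5 CpGs set against all others, the 2 ASC libraries had opposite signs and the EpiSC difference was smaller. The denser class includes CpG islands. Against tiles with 11 to 20 CpGs alone, CpG-poor tiles were lower in every library, by 4.40 points on average in ESCs, 3.85 in ASCs and 3.82 in EpiSCs (exact two-sided sign-flip test over 6 libraries, p = 0.03125, the smallest possible). Here and below, the sign-flip test takes the 6 libraries as independent, although they are 2 replicates of each of 3 states. Its p-value does not allow for the likeness of replicates.

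**Figure D1:**
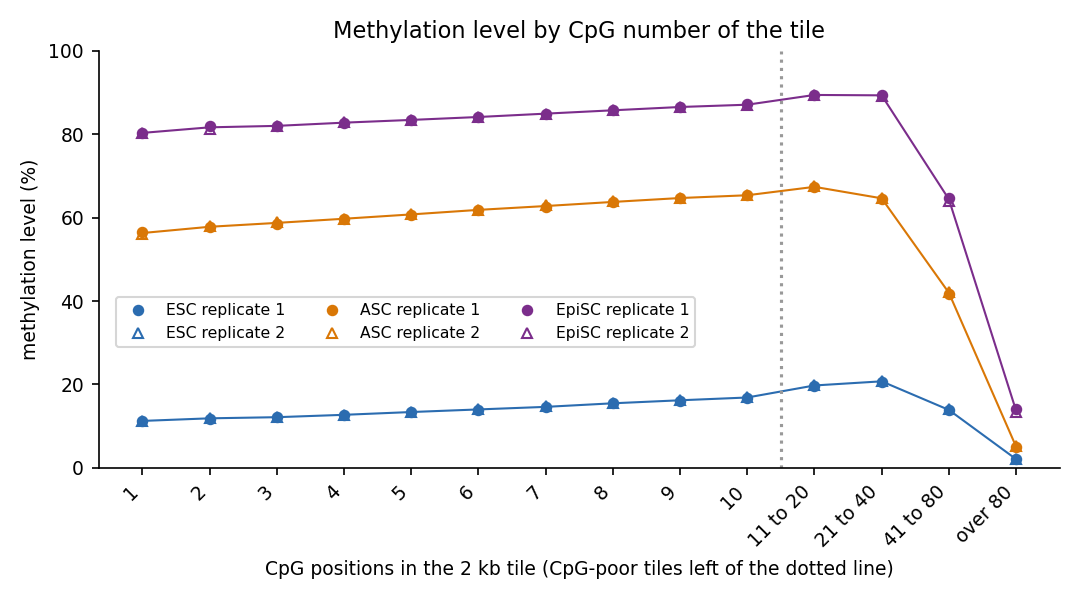
Methylation level (%, vertical axis) of all reads over CpGs in tiles grouped by their number of CpG positions (horizontal axis); filled circles are replicate 1, open triangles replicate 2 and lines the group mean. In all 3 states the mean climbs with each added CpG from 1 to 10, and it falls steeply beyond 40 CpGs.

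Within CpG-poor tiles the level followed the number of CpGs. CpGs that were alone in their tile had levels of 11.3% and 11.2% in the ESC replicates, 56.5% and 56.1% in the ASC replicates, and 80.3% in both EpiSC replicates. In tiles with 10 CpGs the levels were 16.8% and 16.9%, 65.3% and 65.4%, and 87.1% and 87.0%. The group mean was higher at every step from 1 to 10 CpGs in all 3 states. Single CpGs were 5.61 ± 0.20 points below those of 10-CpG tiles in ESCs, 9.06 ± 0.41 in ASCs and 6.76 ± 0.10 in EpiSCs (SD, n = 2), and lower in 6 of 6 libraries (exact sign-flip test, p = 0.03125). The gap in points was widest in ASCs (exact permutation test between groups, p = 0.0667, the smallest possible). As odds ratios, which take the different overall levels into account, the gap was 0.625 in ESCs, 0.683 in ASCs and 0.606 in EpiSCs, so that on this scale it was narrowest in ASCs. The class of single CpGs was small, with 2872 tiles, while 62845 tiles held 10.

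The bases beside the CpG went with its level in every state. CpGs were called WCGW where A or T stood on both sides, SCGS where C or G stood on both sides, and mixed otherwise. WCGW sites (1073352) had levels of 12.8% and 12.9% in the ESC replicates, 58.2% and 58.5% in the ASC replicates, and 82.0% in both EpiSC replicates. SCGS sites (426662) had 18.7% and 18.99%, 69.7% and 69.8%, and 89.5% and 89.4%. Mixed sites (1326963) lay between, with means of 16.1%, 65.4% and 87.0%. WCGW was below SCGS by 6.0 ± 0.14 points in ESCs, 11.4 ± 0.03 in ASCs and 7.5 ± 0.05 in EpiSCs (SD, n = 2), in 6 of 6 libraries (exact sign-flip test, p = 0.03125). The difference was widest in ASCs in points (exact permutation test between groups, p = 0.0667, the smallest possible), while its odds ratio was 0.635 in ESCs, 0.607 in ASCs and 0.535 in EpiSCs. The CpG on chromosome 3 printed above is a WCGW site and that on chromosome 2 an SCGS site.

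**Figure D2:**
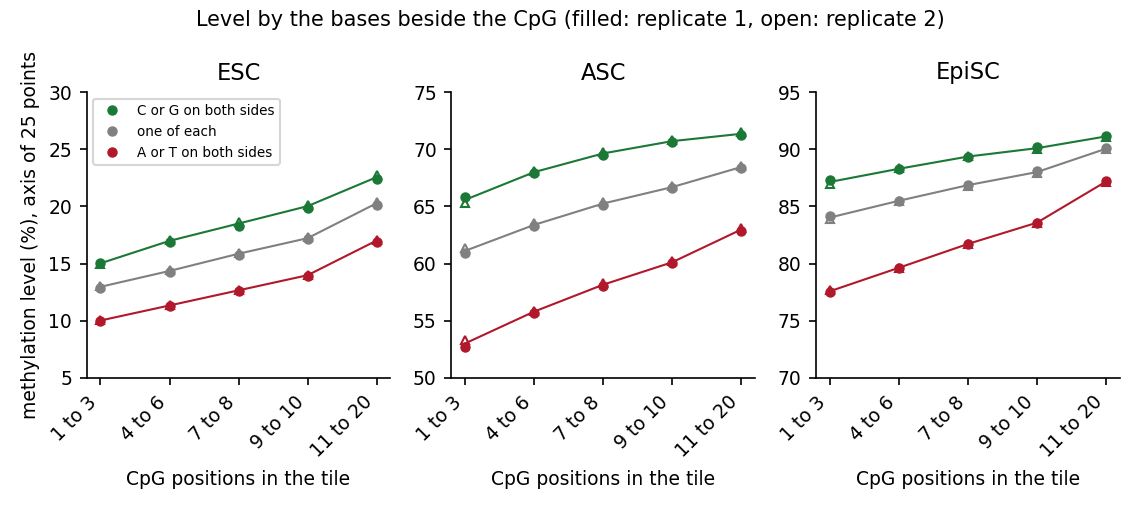
Methylation level (%) of CpGs with A or T on both sides, C or G on both sides, or one of each, by the number of CpG positions in the tile, in 3 panels for ESC, ASC and EpiSC, each with a vertical axis of 25 points that does not start at 0. The 3 lines stay in the same order in every panel and class.

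Flanking bases went with the level in each class of CpG number. In tiles with 1 to 3 CpGs, WCGW was below SCGS by 5.003 points in ESCs, 12.6 in ASCs and 9.56 in EpiSCs, and in tiles with 9 to 10 CpGs by 6.04, 10.6 and 6.52 points. The lowest class formed by both measures, WCGW in tiles with 1 to 3 CpGs, had mean levels of 10.01% in ESCs, 53.0% in ASCs and 77.6% in EpiSCs. Among the 10 four-base contexts, ACGT was lowest in all 3 states, at 11.4%, 57.9% and 79.1%. The highest was CCGG in ESCs (20.1%) and EpiSCs (89.95%) and GCGC in ASCs (71.8%).

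CpG-poor tiles inside protein-coding genes were more methylated than those between genes. Gene bodies had 16.5% and 16.6% in the ESC replicates, 64.6% and 64.8% in the ASC replicates, and 88.1% and 88.0% in the EpiSC replicates. The difference from intergenic tiles was 1.84 points in ESCs, 1.86 in ASCs and 3.76 in EpiSCs, with the same sign in 6 of 6 libraries (exact sign-flip test, p = 0.03125). Repeat-masked CpGs were 0.318 points above other CpGs in ESCs, and below them by 0.260 points in ASCs and 1.09 in EpiSCs (exact permutation test between groups, p = 0.0667, the smallest possible). Chromosomes differed by a few points. The ESC mean ran from 14.2% on chromosome 8 to 16.9% on chromosome 13, the ASC mean from 61.95% on chromosome 7 to 65.6% on chromosome 13, and the EpiSC mean from 83.0% on chromosome 14 to 88.9% on chromosome 9.

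Levels of CpG-poor tiles varied along the chromosomes on the scale of megabases, in all 3 states. Summing reads over the CpG-poor tiles of each 1 Mb window gave 2412 windows with at least 40 reads in every library, out of 2413 with such a tile, with a median of 2293.5 reads in the shallowest library. The median window was at 16.2% and 16.3% in the ESC replicates, 64.5% and 64.7% in the ASC replicates, and 88.3% and 88.2% in the EpiSC replicates. From the 5th to the 95th percentile, windows spanned 12.4 and 12.7 points in ESCs, 15.1 and 14.8 in ASCs, and 17.6 in both EpiSC libraries. Group means of single windows ran from 5.81% to 29.4% in ESCs, from 35.8% to 76.8% in ASCs and from 62.8% to 94.99% in EpiSCs.

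The SD over windows was 3.91 ± 0.06 points in ESCs, 4.81 ± 0.001 in ASCs and 5.57 ± 0.005 in EpiSCs (SD, n = 2; exact permutation test between groups, p = 0.0667, the smallest possible). Counting error alone would give an SD of 0.842 to 1.20 points. The part of the spread that replicates shared had an SD of 3.79, 4.62 and 5.50 points, and across the 2412 windows replicates correlated with r = 0.937 in ESCs, 0.923 in ASCs and 0.974 in EpiSCs. On the log2 odds scale the order was different. There the SD was 0.435 in ESCs, 0.300 in ASCs and 0.653 in EpiSCs, so that ASCs had the smallest SD.

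**Figure D3:**
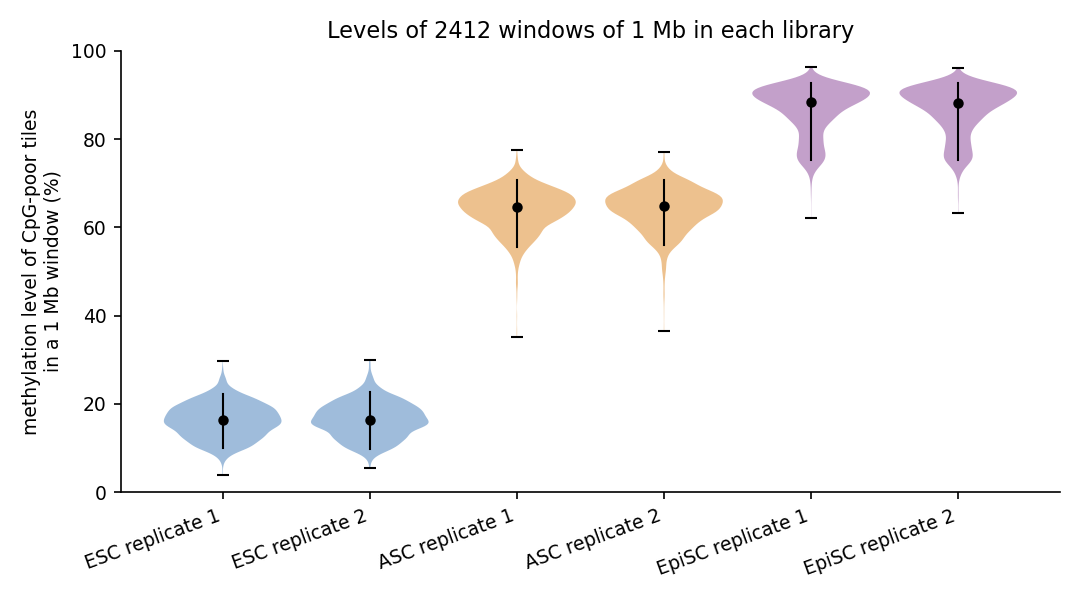
Methylation level (%) of CpG-poor tiles in each of 2412 windows of 1 Mb, as a violin for each library, with the median as a point, the 5th to 95th percentiles as a line and the lowest and highest windows as ticks. The ESC violins centre on 16.2% and 16.3%, the ASC violins on 64.5% and 64.7%, and the EpiSC violins have a lower shoulder, with 394 windows (16.3%) at a group mean under 80%.

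Windows that were low in one state tended to be low in the others. Across windows the group means correlated with r = 0.808 for ASCs and ESCs, 0.664 for ESCs and EpiSCs and 0.632 for ASCs and EpiSCs. These points share base composition and CpG number, and neighbouring windows are not independent. Of the 241 windows in the lowest decile of each state, 166 (68.9%) were common to ESCs and ASCs, 113 (46.9%) to ESCs and EpiSCs, 105 (43.6%) to ASCs and EpiSCs, and 87 (36.1%) to all 3. In the highest decile the numbers were smaller, with 136 (56.4%), 79 (32.8%), 78 (32.4%) and 54 (22.4%).

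Low windows lay next to each other. In EpiSCs 69.7% of the lowest decile had a neighbouring window in the same decile, against 51.9% in ESCs and 50.6% in ASCs, and the longest unbroken runs were 8 Mb in EpiSCs, 5 Mb in ESCs and 6 Mb in ASCs. The correlation between windows 1 Mb apart was 0.43 in ESCs, 0.42 in ASCs and 0.57 in EpiSCs. It fell to 0.21, 0.24 and 0.33 at 2 Mb and to 0.006, 0.049 and 0.152 at 5 Mb. Tiles with 11 to 20 CpGs in the same window followed the CpG-poor ones, with r = 0.829 in ESCs, 0.732 in ASCs and 0.930 in EpiSCs. The CpG-poor tiles were the lower of the pair in 91.2% of windows in ESCs, 83.2% in ASCs and 81.3% in EpiSCs.

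Windows rich in CpG-poor tiles had low levels. In the quintile of windows with the smallest share of such tiles (0.6% to 10.4%), levels were 18.8% in ESCs, 65.4% in ASCs and 89.8% in EpiSCs. In the quintile with the largest share (58.4% to 80%) they were 12.8%, 60.4% and 82.4%. Replicates differed by less than 0.4 points in each of these classes. ASCs were not highest in the first quintile but in the second, at 66.4%. Levels also went up with GC content, from 12.8%, 60.3% and 81.9% in the most AT-rich quintile to 17.5%, 64.5% and 89.1% in the most GC-rich one, with the maximum in the fourth quintile in ESCs (17.6%) and ASCs (65.8%). With cover by protein-coding genes they went from 13.5%, 61.3% and 82.4% to 16.6%, 64.9% and 87.8%, against 16.8%, 64.9% and 88.0% in the fourth quintile. Across the 2412 windows the level correlated with the share of CpG-poor tiles at r = -0.59 in ESCs, -0.43 in ASCs and -0.51 in EpiSCs. It also correlated with the reads in the window, at -0.44, -0.22 and -0.32, and the part of depth in these levels was not tested. Distance to the chromosome end went with it little, at -0.06, -0.03 and -0.08.

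**Figure D4:**
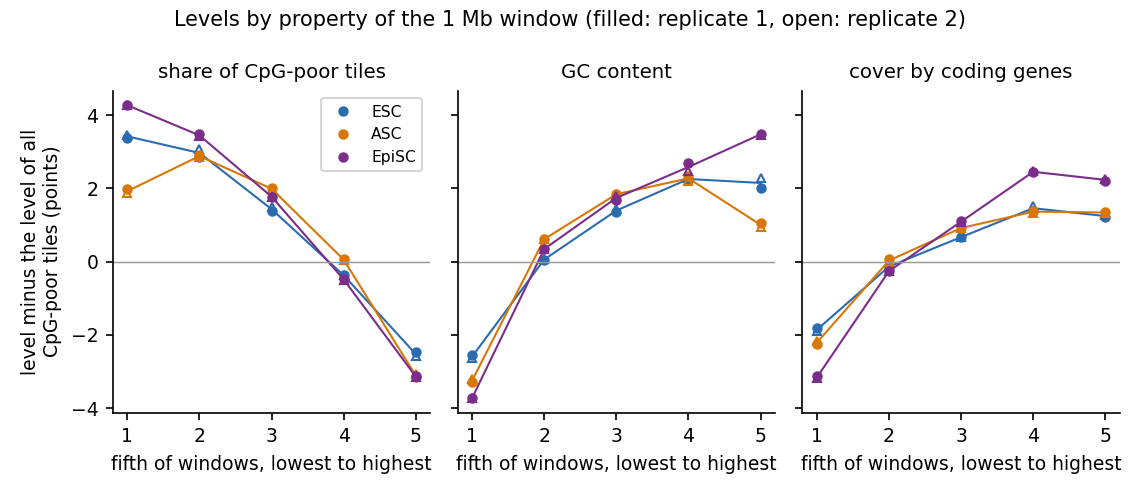
Level of CpG-poor reads minus the level of all CpG-poor tiles of the same library (percentage points) in 5 classes of windows of about equal number, from the lowest to the highest share of CpG-poor tiles, GC content or cover by coding genes. All 3 states are lowest in the class richest in CpG-poor tiles, the most AT-rich and the least covered by genes, and the ASC line turns at the end of the first 2 panels, from 66.4% in the second class to 65.4% in the first and from 65.8% in the fourth to 64.5% in the last.

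Of the 6 windows with at least 500 reads in every library that were among the 3 lowest such windows in some state, 4 held 0 protein-coding genes. Immunoglobulin gene segments were not counted as protein-coding genes. The share of all windows with so few or so many coding genes was not counted, here and below. The lowest ESC level among windows with at least 500 reads in every library was in chr7:61000001-62000000, with 6.92% and 6.57% in ESCs, 44.1% and 44.3% in ASCs and 79.7% and 80.8% in EpiSCs. It had 374 CpG-poor tiles and 0 protein-coding genes. Its neighbour chr7:60000001-61000000, which holds the imprinted genes Snrpn and Snurf, had 8.20% and 7.90%, 44.8% and 47.4%, and 81.3% and 79.5%. Both were among the 3 lowest in ASCs, while their EpiSC levels were over 15 points above the lowest EpiSC window. 

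The lowest ASC and EpiSC levels under the same limit on reads were in chr12:115000001-116000000, in the region of the immunoglobulin heavy chain variable segments. It had 7.18% and 6.30% in ESCs, 43.7% and 43.1% in ASCs, and 62.2% and 63.4% in EpiSCs. All 3 states were low here and did not overlap. The window before it, chr12:114000001-115000000, was at 10.1% and 9.67%, 47.7% and 50.9%, and 67.7% and 66.5%. In these windows 3.45% and 5.90% of all CpGs, those of denser tiles included, were listed in neither EpiSC library. In ESCs the share was 0.532% in the first, and the part of those gaps in the EpiSC level was not tested. The third window low in EpiSCs, chr6:130000001-131000000, carries 7 Klra genes, which encode natural killer cell receptors, among its 8 coding genes. It was at 7.77% and 7.78%, 45.8% and 46.4%, and 64.7% and 63.2%, with 2649 to 6880 reads a library. On the whole of chromosome 6 CpG-poor reads ranged from 356694 to 690496, against 299439 to 400756 on chromosome 5 and 310689 to 411832 on chromosome 7. No other autosome had so wide a range for its depth. In this window and on chromosome 6 as a whole the ESC libraries had the most reads. The part of this in levels on chromosome 6 was not tested. The third window low in ESCs, chr11:92000001-93000000, had no coding gene and levels of 7.39% and 7.15%, 51.0% and 49.1%, and 74.2% and 74.7%.

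Counting only windows with at least 500 reads in every library, ESCs and ASCs shared 2 of their 3 highest windows. chr6:37000001-38000000, with the diacylglycerol kinase gene Dgki, was highest in ESCs at 29.7% and 29.2%, with 72.6% and 72.1% in ASCs and 93.4% and 93.3% in EpiSCs. chr13:29000001-30000000, with Cdkal1 and the cell cycle factor E2f3, was highest in ASCs at 76.0% and 77.0%, with 25.6% and 25.4% in ESCs and 93.0% and 92.4% in EpiSCs. chr16:24000001-25000000, with Lpp, and chr14:99000001-100000000, with Klf12, were among the 3 highest in both ESCs (27.3% and 28.0%, 26.2% and 28.9%) and ASCs (74.8% and 74.4%, 74.96% and 75.9%). Under the same limit on reads, the 3 highest EpiSC windows were others and held 10 to 23 coding genes. They were chr9:65000001-66000000 (94.9% and 94.7%, with Csnk1g1), chr4:126000001-127000000 (94.2% and 94.9%, with Ago3) and chr2:73000001-74000000 (95.2% and 93.9%, with Chn1). In ASCs these 3 windows had between 63.1% and 69.8%.

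Every window differed between ESCs and the other states, and most differed between ASCs and EpiSCs. A window counted as different at an adjusted p under 0.05 and a gap between group means of at least 20 points, in a quasi-binomial model of methylated and unmethylated reads with limma-moderated dispersion. ASCs were higher than ESCs in 2412 of 2412 windows (100.0%), and so were EpiSCs (100.0%). ASCs were lower than EpiSCs in 1785 windows (74.0%) and higher in 0 (0.0%). No window had a higher mean in ASCs than in EpiSCs, so that no test could call one higher. At an unadjusted p under 0.05 in the quasi-binomial model, 2411 were lower. On the path from the ESC mean (0) to the EpiSC mean (1), ASC windows had a median position of 0.681 and 0.683 in the 2 libraries, and 5th to 95th percentiles of 0.598 to 0.767 and 0.599 to 0.770. In percentage points, ASCs were nearer to EpiSCs than to ESCs in 2404 windows and nearer to ESCs in 8. Positions on the odds scale were not computed, and these counts may differ there. The low window at chr7:61000001-62000000 had a position of 0.509.

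To see where the states differed more or less than elsewhere, each window was set against the odds of methylation of all CpG-poor reads in its own library. A window was called relatively higher or lower where the ratio of these odds between 2 states departed from 1 by a factor of at least 5 to 4, with an adjusted p under 0.05 in the same model. ASCs were relatively higher than ESCs in 196 windows (8.13%) and lower in 226 (9.37%). EpiSCs were relatively higher than ESCs in 895 (37.1%) and lower in 367 (15.2%). ASCs were relatively higher than EpiSCs in 454 (18.8%) and lower in 1025 (42.5%). The split depends on the reference level, which weights windows by their reads. The median window had a log2 odds difference of -0.00862 for ASCs against ESCs, 0.196 for EpiSCs against ESCs and -0.238 for ASCs against EpiSCs. Relative to the median window, the counts of higher and lower windows were 246 and 174, 448 and 674, and 742 and 478.

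**Figure D5:**
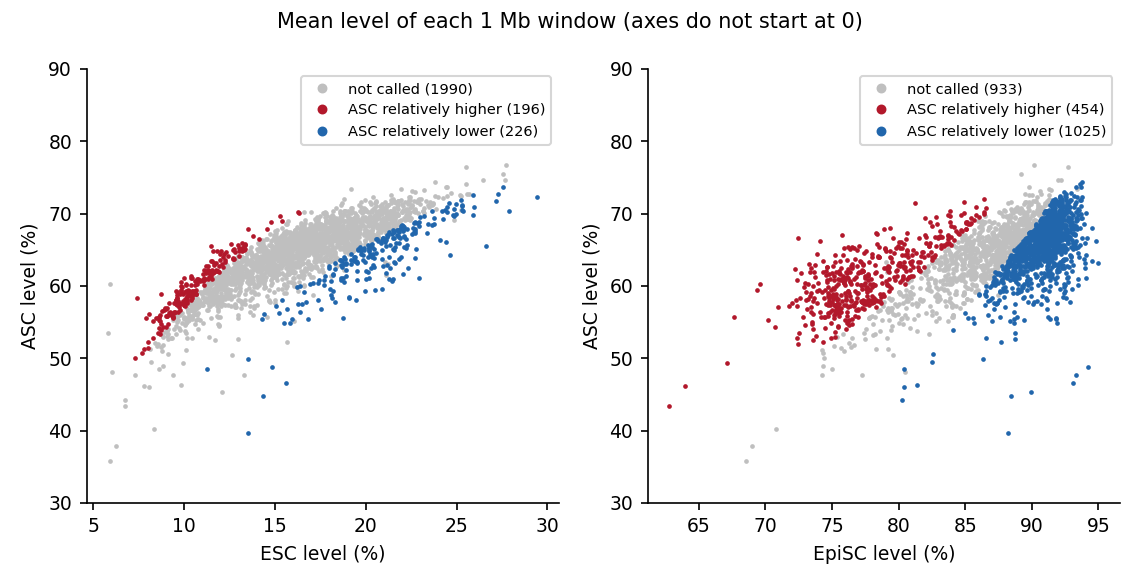
Mean level (%) of CpG-poor tiles in each 1 Mb window in ASCs against ESCs (left) and against EpiSCs (right); axes do not start at 0. Red points are windows where ASCs were relatively higher (196 and 454), blue points relatively lower (226 and 1025), grey points were not called.

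The 3 windows with the smallest relative gain in ASCs held 11 to 36 coding genes and few CpG-poor tiles. chr11:116000001-117000000, with 36 coding genes and 6 CpG-poor tiles, had 14.1% and 12.9% in ESCs, 36.9% and 42.3% in ASCs, and 89.8% and 86.7% in EpiSCs. Its odds ratio for ASCs against ESCs was 0.436 (adjusted p = 0.000502), the smallest of all called windows. chr11:119000001-120000000 (0.489, with Rptor and 3 Cbx genes) and chr2:168000001-169000000 (0.506, with Nfatc2) followed, each on 5 or 6 tiles. The call in the first of these was lost without ESC replicate 1 (adjusted p = 0.0772; range over alternatives 0.000294 to 0.0772). That in the second was lost without ASC replicate 1 (0.0701) or ESC replicate 2 (0.0727; range 0.00278 to 0.0727).

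Among windows that passed the test, the 3 largest relative gains in ASCs lay in 2 windows with clusters of gene copies and in 1 with 4 coding genes. chr7:20000001-21000000, where 17 of 29 coding genes are Vmn1r pheromone receptors, had 6.93% and 7.89% in ESCs, 58.4% and 58.3% in ASCs, and 72.1% and 73.2% in EpiSCs (odds ratio 1.83, adjusted p = 0.000503). chr10:102000001-103000000, with Mgat4c, was better covered and had 8.31% and 7.77%, 56.0% and 56.4%, and 75.3% and 75.2% (1.53, adjusted p = 5.4e-10). For chr14:3000001-4000000 (1.57) the call was lost without ASC replicate 2 (adjusted p = 0.0787) or ESC replicate 1 (0.206; range 0.00649 to 0.206). Clusters of near-identical copies such as the Vmn1r genes had few reads for their number of tiles, with 431 to 480 reads on 209 tiles, and how reads were divided among copies was not tested.

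Between EpiSCs and ESCs, the low end included a window of zinc finger genes and the high end windows with 0 to 3 coding genes. chr13:66000001-67000000 had 20.6% and 21.7% in ESCs, 63.4% and 62.4% in ASCs, and 73.2% and 74.2% in EpiSCs (odds ratio 0.320, adjusted p = 3.97e-24, and 0.165 with tiles of 1 to 5 CpGs). chr4:146000001-147000000, with Zfp993, Zfp600 and Zfp981, had 20.2% and 20.01%, 60.6% and 63.3%, and 73.0% and 73.7% (0.334). Both were above the median window in ESCs and below it in ASCs and EpiSCs. The third, chr4:140000001-141000000 (0.360), rested on 8 tiles. At the other end, chr3:4000001-5000000, with 0 coding genes, had 10.3% and 10.6%, 59.2% and 58.8%, and 92.8% and 92.0% (3.19, adjusted p = 1.7e-25). chr3:5000001-6000000 (3.14, with Zfhx4) adjoins it, and chr10:47000001-48000000 (3.11) again held 0 coding genes.

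Between ASCs and EpiSCs, chr4:135000001-136000000 was at the low end (odds ratio 0.219). It rested on 82 to 103 reads of 3 tiles, with ASC replicates at 58.1% and 37.4%. The ratio was 0.145 and 0.339 without ASC replicate 1 or 2, and 0.332 and 0.115 without EpiSC replicate 1 or 2. chr11:119000001-120000000 (0.220) rested on 6 tiles. These few tiles do not describe the low end as a whole. At the high end, where ASCs and EpiSCs came nearest, were chr12:23000001-24000000 (2.58) and chr14:114000001-115000000 (2.34). The latter had 18.3% and 17.5%, 65.9% and 66.6%, and 73.4% and 74.8%, and 0 coding genes. chr7:22000001-23000000 (2.24), with 13 Vmn1r genes, had as few as 40 reads in a library, and its call was lost without ASC replicate 2 (adjusted p = 0.0852; range 0.00073 to 0.0852).

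CpG-poor tiles whose centre lay in a protein-coding gene were then summed by gene. Of 20807 coding genes, 10326 had such a tile and 6071 had at least 40 reads in every library, with a median of 115 reads in the shallowest library. ASCs were at least 20 points above ESCs in 6050 genes (99.7%) and EpiSCs in 6069 (100.0%). ASCs were lower than EpiSCs in 4348 genes (71.6%) and higher in 2 (0.0329%). Relative to the library level, ASCs were higher than ESCs in 251 genes (4.13%) and lower in 383 (6.31%), EpiSCs higher than ESCs in 1756 (28.9%) and lower in 255 (4.2%), and ASCs higher than EpiSCs in 368 (6.06%) and lower in 2171 (35.8%). Gene bodies as a whole differed from the library level. The median gene had log2 odds differences of -0.0635, 0.506 and -0.544 in these contrasts. Relative to the median gene the higher and lower calls were 486 and 217, 515 and 614, and 979 and 631, a count chosen after seeing the data.

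Gene counts were less stable than window counts. Higher ASC calls against ESCs fell to 128 without ESC replicate 1 and 123 without ESC replicate 2. Lower calls fell to 204 and 201 without ASC replicate 1 or 2 and to 177 and 151 without ESC replicate 1 or 2. Without EpiSC replicate 1, higher calls of EpiSCs against ESCs fell to 1042 and lower calls of ASCs against EpiSCs to 1403. With limma on log-odds values no gene was called between ASCs and ESCs, although 958 had an unadjusted p under 0.05.

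The 2 genes that were higher in ASCs than in EpiSCs were Hoxa3, a homeobox gene of the axial patterning clusters, and the overlapping model Gm28308, which share the same 2 tiles. Their level was 16.5% and 20.7% in ESCs, 56.7% and 55.2% in ASCs, and 18.9% and 22.1% in EpiSCs. ESCs and EpiSCs overlapped, and both ASC libraries were well above them. The difference between ASCs and EpiSCs was 35.5 points (adjusted p = 9.94e-08), and in 16 genes in all the ASC mean exceeded the EpiSC mean.

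Hox genes had the smallest median odds ratio of EpiSCs against ESCs among the gene lists (0.169, against 1.42 over all genes). Of 39, 7 had a CpG-poor tile and 5 could be tested. EpiSCs were relatively lower than ESCs in 5 of 5, where 4.2% of all genes were, and ASCs relatively higher than EpiSCs in 4 of 5, where 6.06% were. Hoxb3 had 10.7% and 8.33% in ESCs, 37.3% and 41.5% in ASCs, and 26.8% and 33.3% in EpiSCs. Hoxc5 had 4.05% and 13.4%, 43.8% and 35.2%, and 30.3% and 38.3%. EpiSC levels of Hoxb3 lay below those of ASCs and those of Hoxc5 overlapped them, while the median tested gene was at 91.1% in EpiSCs. Hoxd3 had 21.1% and 19.6%, 58.0% and 60.8%, and 55.0% and 63.6%. Hoxc4, which missed the call against ASCs (adjusted p = 0.0798), had 14.6% and 11.5%, 42.3% and 38.6%, and 58.3% and 52.7%. Odds ratios of EpiSCs against ESCs ran from 0.0345 for Hoxa3 to 0.257 for Hoxc4. The genes had 41 to 91 reads a library, on 1 or 2 tiles each, which overlapping gene models can share. The EpiSC call was lost without ESC replicate 2 for Hoxc5 (adjusted p = 0.334) and without ESC replicate 1 for Hoxc4 (0.0732), with ranges over alternatives of 0.000192 to 0.334 and 0.00131 to 0.0732.

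Genes of the DNA methylation machinery were relatively low in ASCs against EpiSCs. Of 20 in the annotation, 14 had a CpG-poor tile and 6 were tested, and in 6 of 6 ASCs were relatively lower than EpiSCs (35.8% of all genes). Relative to the median gene this held for 4 of 6, where 10.4% of all genes were lower. Hells, a chromatin remodeller needed for DNA methylation, had 13.0% and 11.4% in ESCs, 48.2% and 53.6% in ASCs, and 97.8% and 94.5% in EpiSCs, with an odds ratio of 0.136 (adjusted p = 1.8e-09), which was 0.205 without EpiSC replicate 1 and 0.0816 without EpiSC replicate 2. Setd2, which trimethylates H3K36, had 20.2% and 24.0%, 57.8% and 60.1%, and 94.6% and 97.4% (0.214, and 0.131 without EpiSC replicate 1). Nsd1, which dimethylates H3K36, had 16.1% and 19.02%, 60.3% and 62.6%, and 94.2% and 92.6% (0.378). Tet2, a methylcytosine dioxygenase, had 24.6% and 13.7%, 55.8% and 59.3%, and 95.5% and 92.1% (0.302). In these 4 genes the ASC level was below that of the median gene, 66.2%, and the EpiSC level above 91.1%. Setdb1 (64.5% and 74.1% in ASCs) and Uhrf2 (68.5% and 73.2%) had ASC means above that of the median gene. The call in Tet2 was lost without EpiSC replicate 1 (adjusted p = 0.0529; range 0.000312 to 0.0529). Those in Setdb1 (0.250) and Uhrf2 (0.409) were lost relative to the median gene (0.0568 and 0.314), and also Setdb1 without tiles within 5 kb of the gene start (0.152), and Uhrf2 without ASC replicate 1 (0.0989), EpiSC replicate 1 (0.0904) or EpiSC replicate 2 (0.165).

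Few pluripotency and lineage genes had enough CpG-poor sequence, and single calls are given here beside shares of 35.8% of all genes for ASCs below EpiSCs and 4.2% for EpiSCs below ESCs. Of 20 naive pluripotency genes 1 was tested, Tfcp2l1, a transcription factor of the naive network. It had 13.1% and 13.3% in ESCs, 49.4% and 45.5% in ASCs, and 87.0% and 85.3% in EpiSCs, and was relatively lower in ASCs than in EpiSCs (odds ratio 0.487, adjusted p = 0.00225). That call was lost relative to the median gene (0.245) and without EpiSC replicate 1 (0.060; range 0.00208 to 0.245). Of 10 core pluripotency genes 2 were tested, and Rif1, a telomere and replication timing factor, had 12.5% and 14.0%, 47.3% and 43.0%, and 92.9% and 92.2%, with an odds ratio of 0.227 (adjusted p = 4.86e-06) kept under all 11 alternatives. Of 26 primed and early germ layer genes 4 were tested. EpiSCs were relatively lower than ESCs in Gata6 (odds ratio 0.345), a call lost with limma on log-odds values (adjusted p = 0.0524) and without ESC replicate 1 (0.0863) or EpiSC replicate 2 (0.588; range 0.00499 to 0.588). ASCs were relatively lower than EpiSCs in Cdh2 (0.662), a call lost with limma (0.109), without ASC replicate 2 (0.115) or EpiSC replicate 1 (0.256) and relative to the median gene (0.942; range 0.0112 to 0.942).

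Of 26 imprinted genes 15 were tested, and, of these, ASCs were relatively above ESCs in 1 and below them in 1 (6.67% each), near the shares over all genes (4.13% and 6.31%). Grb10, an imprinted growth inhibitor, had 14.8% and 9.51% in ESCs, 73.0% and 67.6% in ASCs, and 91.6% and 89.4% in EpiSCs (odds ratio 1.76, adjusted p = 0.00917). Commd1 had 15.9% and 18.1%, 54.6% and 55.7%, and 96.4% and 92.1% (0.625, adjusted p = 0.0287). Grb10 was the further from its ESC level and Commd1 the nearer, with no overlap between states in either. The call in Grb10 was lost without ASC replicate 1 (0.130) or ESC replicate 2 (0.301; range 0.00168 to 0.301), and that in Commd1 without any one of the ASC or ESC libraries or when centred on the median gene (0.0728; range 0.0219 to 0.426). Both were lost with limma on log-odds values.

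All 43 genes of the list headed synaptic and cell adhesion were tested. The list also holds genes outside these classes, such as Fhit, Macrod2 and Wwox, and so does not describe a functional class. Its genes had a median of 3300 reads in the shallowest library, far more than the median gene, so that smaller differences could be called. Their median levels were 12.5% in ESCs, 60.9% in ASCs and 84.5% in EpiSCs, against 17.8%, 66.2% and 91.1% over all tested genes. ASCs were relatively higher than ESCs in 12 (27.9%) and lower in 1 (2.33%), Sgcz, against 4.13% and 6.31% of all genes. EpiSCs were higher than ESCs in 16 (37.2%) and lower in 7 (16.3%), against 28.9% and 4.2% of all genes. ASCs were higher than EpiSCs in 16 (37.2%) and lower in 12 (27.9%), against 6.06% and 35.8% of all genes. Relative to the median gene these counts were 23 and 1 (53.5% and 2.33%, against 8.01% and 3.57% of all genes), 4 and 23 (9.3% and 53.5%, against 8.48% and 10.1%), and 29 and 0 (67.4% and 0%, against 16.1% and 10.4%), so the direction between EpiSCs and the other states depended on the reference.

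Single genes of the list differed in pattern. Csmd1, a synaptic complement regulator, had 8.64% and 8.73% in ESCs, 55.8% and 56.1% in ASCs, and 76.7% and 77.0% in EpiSCs (ASCs against ESCs, odds ratio 1.39, adjusted p = 5.63e-13; range over alternatives 3.98e-19 to 0.286). Nrxn3, a presynaptic adhesion molecule, had 9.64% and 10.7%, 58.95% and 58.9%, and 89.6% in both EpiSC libraries (EpiSCs against ESCs, 2.32). Kcnip4, a potassium channel subunit, had 13.1% and 12.4%, 61.0% and 59.8%, and 73.2% and 72.8%. EpiSC levels of Csmd1 and Kcnip4 were below the list's median and those of Nrxn3 above it. Sgcz, of the sarcoglycan complex, had 16.3% and 17.8%, 55.8% and 56.2%, and 73.4% and 73.8%. Between ASCs and EpiSCs Kcnip4 (1.92) and the postsynaptic adhesion gene Nlgn1 (1.84) were relatively higher in ASCs, under all 12 alternatives.

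Chemosensory receptor families, whose near-identical members can share or lose reads, had lower median levels than all tested genes in the 3 states. Olfactory receptors (187 tested) had median levels of 10.01% in ESCs, 59.1% in ASCs and 84.7% in EpiSCs. Vmn1r (77) and Vmn2r (91) pheromone receptors had 9.77% and 8.68% in ESCs, 57.6% and 55.0% in ASCs, and 85.8% and 78.9% in EpiSCs. ASCs were relatively higher than ESCs in 9 olfactory, 7 Vmn1r and 7 Vmn2r genes (4.81%, 9.09% and 7.69%, against 4.13% of all genes) and lower in 1, 0 and 1 (0.535%, 0% and 1.1%, against 6.31%). Their median reads in the shallowest library were 51, 58 and 109, against 115 over all genes. The part of depth in these shares was not tested. Windows with at least 3 genes of such a family tended to be low. Of 62 windows with at least 3 olfactory receptors, 72.6% were below the median window in ESCs and ASCs and 64.5% in EpiSCs. Of 19 windows with at least 3 Vmn2r genes, 84.2%, 84.2% and 78.9% were below it in ESCs, ASCs and EpiSCs.

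Of the 37 windows with at least 3 zinc finger genes named Zfp, 83.8% were below the median window in ASCs, 59.5% in ESCs and 56.8% in EpiSCs. Tested Zfp genes (134) had median levels of 20.8% in ESCs, 67.2% in ASCs and 91.8% in EpiSCs. ASCs were relatively higher than ESCs in 2 (1.49%) and lower in 14 (10.4%), against 4.13% and 6.31% of all genes. Centred on the median gene, the counts were 3 (2.24%) and 6 (4.48%), against 8.01% and 3.57% of all genes. EpiSCs were higher than ESCs in 32 (23.9%) and lower in 15 (11.2%), against 28.9% and 4.2% of all genes. Relative to the median gene they were higher in 8 (5.97%) and lower in 25 (18.7%), and over all genes the balance turned as well, to 8.48% higher and 10.1% lower. Of the 39 protocadherins tested, 33 lie on chromosome 18 with gene bodies that overlap, and ASCs were relatively lower than EpiSCs in 31 (79.5%, against 35.8% of all genes) and higher in 2 (5.13%, against 6.06%). With values centred on the median gene they were lower in 19 (48.7%, against 10.4% of all genes) and higher in 6 (15.4%, against 16.1%). Cytochromes P450 (57) and serpins (33) had 3 and 2 genes with ASCs relatively above ESCs (5.26% and 6.06%, near the 4.13% of all genes) and 0 with ASCs below (against 6.31%). Median reads in the shallowest library were 127 for P450 genes and 81 for serpins, against 115 over all genes. ASCs were relatively above EpiSCs in 9 serpins (27.3%, against 6.06% of all genes), and relative to the median gene in 15 (45.5%, against 16.1%). In P450 genes EpiSCs were relatively above ESCs in 18 (31.6%, against 28.9% of all genes) and below in 0 (against 4.2%), and relative to the median gene in 6 (10.5%, against 8.48%) and 2 (3.51%, against 10.1%).

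Genes with the largest and smallest relative changes were named among those with at least 200 reads in every library. Among the smallest gains of ASCs against ESCs were those in Dido1 (odds ratio 0.446), the nucleoporin gene Nup153 (0.483), the exportin gene Xpo6 (0.489) and the formin gene Diaph1 (0.490). Nup153 had 15.9% and 14.0% in ESCs, 43.0% and 46.9% in ASCs, and 92.4% and 90.1% in EpiSCs. Its ASC levels were far below the median gene and its EpiSC levels were not. The largest gains were in Tinag (2.44), the meiotic chromosome axis gene Sycp2 (2.43), Pcdh17 (2.27), the ubiquitin ligase Herc6 (2.21) and the protease inhibitor Serpina3b (2.21). Tinag had 6.89% and 5.68%, 59.2% and 63.1%, and 89.1% and 84.5%. With limma on log-odds values all of these calls were lost (adjusted p from 0.211 to 0.227). With tiles of 1 to 5 CpGs those in Tinag (odds ratio 1.57, adjusted p = 0.517) and Sycp2 (1.61, adjusted p = 0.494) were lost too. Those in Dido1 (0.0547; range 0.000139 to 0.22), Diaph1 (0.0699; range 9.98e-05 to 0.215) and Sycp2 (0.0518; range 0.000215 to 0.494) were lost without ESC replicate 2, and those in Pcdh17 (0.173; range 0.00133 to 0.214) and Serpina3b (0.0861; range 0.000466 to 0.227) without ESC replicate 1.

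Between EpiSCs and the other states the extremes were sharper. Rtn4, which encodes the neurite outgrowth inhibitor Nogo, had 5.33% and 8.89% in ESCs, 43.9% and 50.6% in ASCs, and 97.03% and 96.4% in EpiSCs. It had the largest odds ratio of EpiSCs against ESCs (11.4, adjusted p = 2.58e-13) and the smallest of ASCs against EpiSCs (0.104). Rnf111, a ubiquitin ligase of TGF-beta signalling, had 10.9% and 11.9%, 48.3% and 50.1%, and 96.4% and 95.2%, and Rybp, a Polycomb subunit, 9.28% and 10.3%, 41.8% and 42.5%, and 94.1% and 94.0%. Wac (7.62), Rnf111 (5.57) and Slc39a12 (4.65) were also among the largest EpiSC gains, and Wac (0.127), Rnf111 (0.141) and Rybp (0.157) among the genes lowest in ASCs relative to EpiSCs. The ratios of Wac were 4.996 and 0.193 without EpiSC replicate 1, and 11.8 and 0.0816 without EpiSC replicate 2.

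At the other end was the zinc finger gene Zfp936, with 27.05% and 35.6% in ESCs, 77.3% and 77.2% in ASCs, and 73.6% and 75.3% in EpiSCs. ASCs and EpiSCs were within 4 points of each other, where the median gene differed by over 20. Its odds ratio was 0.193 for EpiSCs against ESCs (adjusted p = 1.91e-21) and 3.98 for ASCs against EpiSCs. Zfp808 (0.251), Zfp981 (0.297), the sulfotransferase gene Sult2a3 (0.305) and the monocarboxylate transporter gene Slc16a7 (0.322) were next for EpiSCs against ESCs. Sult2a4 (3.15), Desi2 (2.91), Zfp808 (2.75) and Sult2a3 (2.73) followed for ASCs against EpiSCs, and Desi2 had 37.0% and 33.9%, 83.4% and 84.8%, and 86.8% and 85.4%. The calls named here between EpiSCs and the other states were kept under every alternative in which the gene could be fitted.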

How the data were processed

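Whole-genome bisulfite libraries (post-bisulfite adaptor tagging) of ESCs, ASCs and EpiSCs, 2 each, were used. The authors trimmed reads with Trim Galore, aligned them with Bismark 0.16.3, removed duplicates and merged both strands of each CpG with MethPipe (version not given in the sources used here). Each row of the deposited files holds a CpG's methylated fraction and its read count. Fraction times count was within 0.000115 of a whole number. All listed positions were a CG in GRCm38. GRCm38 (RefSeq) gave base composition, repeats and sequences, and GENCODE M21 gave genes.

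CpGs were grouped into 2 kb tiles and 1 Mb windows, and methylated and total reads were summed. Levels were compared by exact permutation or sign-flip tests. Windows and genes with at least 40 reads in every library were fitted with a quasi-binomial model (R 4.3.3) with dispersion moderated by limma 3.58.1, two-sided F tests and Benjamini-Hochberg adjustment over all windows or genes; relative calls used the log odds of each library's CpG-poor reads as offset. The model was also run on simulated data, with results that are not reported here. Python 3.11.15, numpy 2.4.6, pandas 2.3.3, scipy 1.17.1 and matplotlib 3.10.9 were used. Libraries held 61886636 to 73505968 CpG reads on chromosomes 1 to 19. Reads are not independent of PCR, so intervals cover counting error only, and nothing says that replicates were separate lines.

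Named windows were the 3 highest and 3 lowest in each state with at least 500 reads and the 3 extremes of each relative contrast at each end; named genes were the 5 extremes with at least 200 reads, and members of lists; 1 gene and 1 window that met these rules are not reported here. Tiles, lists and rules were chosen with earlier results of these data known. The sequences on chromosomes 3 and 2 and, for genes and for named windows, the alternatives centred on the median gene or window, and for named genes those without tiles within 5 kb of the gene start, were chosen after seeing the data. The 3 windows highest in ASCs held no single-CpG tile. Alternatives were other window sizes, CpG and read limits, centrings, limma on log odds with 1 read added, a replicate block and leaving out each library.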

Additional observations from a re-analysis of the deposited data

Results flagged for a closer look

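The level of CpG-poor tiles minus that of denser tiles had opposite signs between states, at -3.00 points in ESCs, 3.82 in ASCs and 5.50 in EpiSCs, with every library of a state on the same side. With tiles of 1 to 5 CpGs the ASC replicates lay on either side of 0. Against tiles with 11 to 20 CpGs all 6 libraries were negative. The permutation test between groups gave p = 0.0667, the smallest it can give, so this test cannot pass 0.05.

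Repeat-masked CpGs of CpG-poor tiles minus other CpGs also changed sign, at 0.318 points in ESCs, -0.260 in ASCs and -1.09 in EpiSCs, again with both libraries of each state on the same side and p = 0.0667 in the exact permutation test. Pairwise differences between states were not tested.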

How the results depend on the processing

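Depth limited single tiles and short genes, 2 libraries a state limited permutation p-values, and the reference level set the split of relative calls. The difference between CpG-poor and other tiles depended on the class compared. With tiles of 1 to 5 CpGs it was -5.17 points in ESCs, -0.0429 in ASCs, 2.40 in EpiSCs and -0.939 over all libraries, with CpG sites weighted equally -3.63, 3.54 and 3.13 points, and against tiles with 11 to 20 CpGs -4.40, -3.85, -3.82 and -4.02 points. Leaving out libraries gave -7.48 to -6.70 points for single against 10 CpGs and -8.78 to -7.68 for WCGW against SCGS, where an exact sign-flip test over 5 libraries cannot go below p = 0.0625. The SD of windows in ASCs minus ESCs was -0.136 on the log2 odds scale. Window calls, given as ASCs over ESCs, EpiSCs over ESCs and ASCs under EpiSCs, were 4775, 4775 and 3405 with 500 kb windows and 1220, 1220 and 925 with 2 Mb windows, and 92 windows had ASCs at least 30 points under EpiSCs. Relative calls, as higher and lower for ASCs against ESCs, EpiSCs against ESCs and ASCs against EpiSCs, were 556 and 519, 1763 and 693, and 907 and 1961 with 500 kb windows, and 46 and 70, 424 and 186, and 224 and 474 with 2 Mb windows. With 1 to 5 CpGs they were 94 and 51 and 485 and 241, with 544 lower in the last. Centred on the median window they were 448 and 674 for EpiSCs against ESCs and 742 and 478 for ASCs against EpiSCs. Genes with limma gave 0 and 0 between ASCs and ESCs, 973 with EpiSCs above ESCs, and 207 and 1389 between ASCs and EpiSCs. Centred on the median gene, an alternative chosen after seeing the data, they gave 486 and 217, 515 and 614, and 979 and 631, and Kcnq1 changed direction between ASCs and EpiSCs (odds ratio 1.17). Leaving out each library gave 123 to 254 higher and 151 to 398 lower genes for ASCs against ESCs, 1042 to 1743 higher for EpiSCs against ESCs and 1403 to 2162 lower for ASCs against EpiSCs. No named window and no gene named for its extreme change turned direction under an alternative that could be fitted. The cause was not tested for any of these.

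Deviations of same-numbered libraries from their group means correlated at -0.0175, -0.00236 and 0.0146 over 2412 windows. This cannot tell whether the replicate numbers pair the samples, since a shift common to all windows drops out of such a correlation. With the number as a replicate block, relative window calls were 198 and 222, 898 and 366, and 454 and 1024, and gene calls 272 and 412, 1814 and 260, and 372 and 2216, and all 18 named windows and 30 named gene contrasts kept their call.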
